A study of Mus musculus with 8 samples.

Results

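The genes described here are 6 transcription factor genes of the mesenchymal lineages: Sox9, Runx2, Sox6, Sox5, Pparg and Twist1. They were examined in chromatin immunoprecipitation and sequencing (ChIP-seq) data for HA-tagged histone H3 from C3H10T1/2 cells, a mouse line of embryonic mesenchymal progenitors. Members were defined by position, with earlier results of these data known: every row of the deposited genome table that overlapped the window of 1 gene or the 100 kb on either side of it. The rule found 320 of the table's 253926 rows, of which 316 were 10 kb bins with enough signal to use, 196 in gene windows and 120 in flanks. The other 4 rows, all in Sox5, were wider than 10 kb.

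The 4 cell lines, at passages 10 to 15, each stably expressed 1 FLAG-HA-tagged histone: wild-type H3.1 (H3.1WT), H3.1K36M, wild-type H3.3 (H3.3WT) or H3.3K36M. All 4 carried the same double tag, in the same parental line. The HA antibody reports the tagged histone alone, so untagged H3 of the cells is not seen, and whether a line is 1 clone is not stated in the labels. Each line gave 1 HA library of between 35487141 and 46749609 reads, and its signal is given in RPM, reads scaled to the library total, per 10 kb. Since a line has 1 library, differences between lines carry no replicate check. All intervals below are exact 95% intervals on reads and cover counting error only. The cell type could not be checked against marker genes in data on histone position.

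H3.1 is the form of histone H3 that is placed on DNA mainly behind the replication fork, while H3.3 is also placed outside replication, typically at active genes and their regulatory elements. The K36M change replaces lysine 36, a site of methylation in the bodies of active genes, with methionine, and blocks enzymes that methylate this site; in H3.3 it is known from chondroblastoma, a tumor of cartilage-forming cells. The 6 genes steer progenitors to their fates. Sox9 starts the cartilage programme, and Sox5 and Sox6 are closely related partners that act with Sox9 on cartilage matrix genes. Runx2 is needed for bone-forming cells, Pparg is the central regulator of fat cells, and Twist1 is a basic helix-loop-helix factor of early mesenchyme that restrains Runx2.

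In mm9, the build of the table, the windows were chr11:112640001-112650000 for Sox9, chr17:44630001-44960000 for Runx2, chr7:122610001-123190000 for Sox6, chr6:143770001-144740000 for Sox5, chr6:115310001-115441000 for Pparg and chr12:34640001-34650000 for Twist1. The RefSeq gene table used here is on GRCm38.p6 and not mm9, so it served only for strand, length and the order of neighbours, and which bins hold exons, introns or UTRs is not given here. In it the genes span from 2.16 kb (Twist1) to 954 kb (Sox5), each shorter than its window; Sox9, at 5.55 kb, and Twist1 fill only part of their 10 kb windows. Runx2, Sox6 and Sox5 lie on the minus strand, so their 5′ ends are at the right-hand edge of their windows.

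Promoter sequences from RefSeq (GRCm38.p6) were found for 5 of the 6 genes, all but Sox9. For Pparg, Twist1 and Runx2 1 promoter each is shown. These genes carried high H3.3 signal in both H3.3 lines, and the promoters shown are very unlike. Each run is the 250 bases before the listed start, 5′ to 3′ on the strand of the gene (plus for Pparg and Twist1, minus for Runx2). Capitals mark CG dinucleotides in Pparg and Twist1, and in Runx2 the letters ACCACA, a short match to the motif bound by RUNX proteins.
Pparg: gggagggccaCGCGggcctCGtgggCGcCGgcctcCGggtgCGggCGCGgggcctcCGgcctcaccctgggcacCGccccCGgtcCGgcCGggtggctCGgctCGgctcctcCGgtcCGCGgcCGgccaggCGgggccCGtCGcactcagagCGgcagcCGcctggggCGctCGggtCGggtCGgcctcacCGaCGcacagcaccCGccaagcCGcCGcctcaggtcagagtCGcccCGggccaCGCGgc
Twist1: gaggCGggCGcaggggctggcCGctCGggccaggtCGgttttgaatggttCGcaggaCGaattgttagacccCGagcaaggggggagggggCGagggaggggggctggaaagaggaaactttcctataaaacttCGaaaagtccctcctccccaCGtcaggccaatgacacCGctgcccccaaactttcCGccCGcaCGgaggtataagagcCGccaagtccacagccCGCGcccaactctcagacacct
Runx2: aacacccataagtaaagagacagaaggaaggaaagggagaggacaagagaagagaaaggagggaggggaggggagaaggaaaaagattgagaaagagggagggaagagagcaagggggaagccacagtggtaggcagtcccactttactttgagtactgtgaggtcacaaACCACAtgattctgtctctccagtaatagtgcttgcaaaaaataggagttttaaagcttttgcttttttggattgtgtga
The Pparg promoter shown, of 3 listed the one nearest the 5′ end of the gene, held 38 CG dinucleotides. That number was reached by 1.875% of the 32851 promoters in the table, where the median was 6. The Pparg promoters listed 1.205 and 60.92 kb farther into the gene held 12 and 2, which 33.5% and 81.2% of promoters reach. Twist1 held 18, which 21.7% of promoters reach, and Runx2 held 0, as did 7.87% of promoters. ACCACA or its reverse complement TGTGGT, searched on both strands, occurred at 1 place in the Runx2 run and in 14.05% of all promoters. These matches are descriptions of the letters, and bins of 10 kb cannot place signal on a promoter.

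Levels of H3.3 differed widely between the 6 genes, from the H3.3-rich Runx2 to the H3.3-poor Sox5. In H3.3WT the window means were 9.91 RPM at Sox9, 9.55 at Runx2, 6.88 at Pparg, 6.79 at Twist1, 5.13 at Sox6 and 1.57 at Sox5. The intervals of Sox9 (9.03 to 10.9) and Runx2 (9.40 to 9.71) overlapped, as did those of Pparg (6.68 to 7.09) and Twist1 (6.07 to 7.59), so the order within these pairs is not resolved by counting. Against a library median of 2.77 RPM, 103 of the 316 member bins (32.6%) were at least 2-fold above it, where 23.1% of all bins were. They included every one of the 33 bins of the Runx2 window and of the 14 bins of the Pparg window, and no bin of the Sox5 locus.

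In H3.3K36M Runx2 stood first, clear of Sox9, with 10.1 RPM (9.91 to 10.3), and the order was otherwise as in H3.3WT. It was followed by Sox9 with 7.36 (6.53 to 8.26), Pparg with 7.22 (7.00 to 7.45) and Twist1 with 6.99 (6.18 to 7.88), whose intervals overlap. Sox6 fell to 2.41 RPM, below the library median of 3.004 RPM, and Sox5 had 1.67 RPM. At least 2-fold above the median were 57 member bins (18.0%), against 15.4% of all bins. Among them were 27 bins of the Runx2 window, 12 of the Pparg window and no bin of the Sox6 window, where H3.3WT had 19 of 58.

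The H3.1 libraries gave a flatter picture and another order. In H3.1WT the window means ran from 4.59 RPM at Runx2 and 3.88 at Pparg through 2.80 at Sox6 and 2.47 at Sox5 to 2.24 at Sox9 (1.77 to 2.79) and 2.01 at Twist1 (1.57 to 2.53), where the last 4 are not fully separated by their intervals. In H3.1K36M the same order held, with 4.40, 3.48, 2.69, 2.62, 2.27 and 2.07 RPM. At least 2-fold above the median of 3.65 RPM in H3.1WT were 7 member bins (2.215%), where 1.84% of all bins were, and in H3.1K36M 6 (1.90%), where 1.6% of all bins were. These were all in the Runx2 locus and mostly in its flanks. Sox9 and Twist1, rich in H3.3, thus had the lowest H3.1 means, though in H3.1WT their wide 1-bin intervals reach that of Sox5. In H3.1K36M the interval of Sox9 (1.83 to 2.77) spans those of Sox5 (2.56 to 2.67) and Sox6 (2.63 to 2.76).

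**Figure D1:**
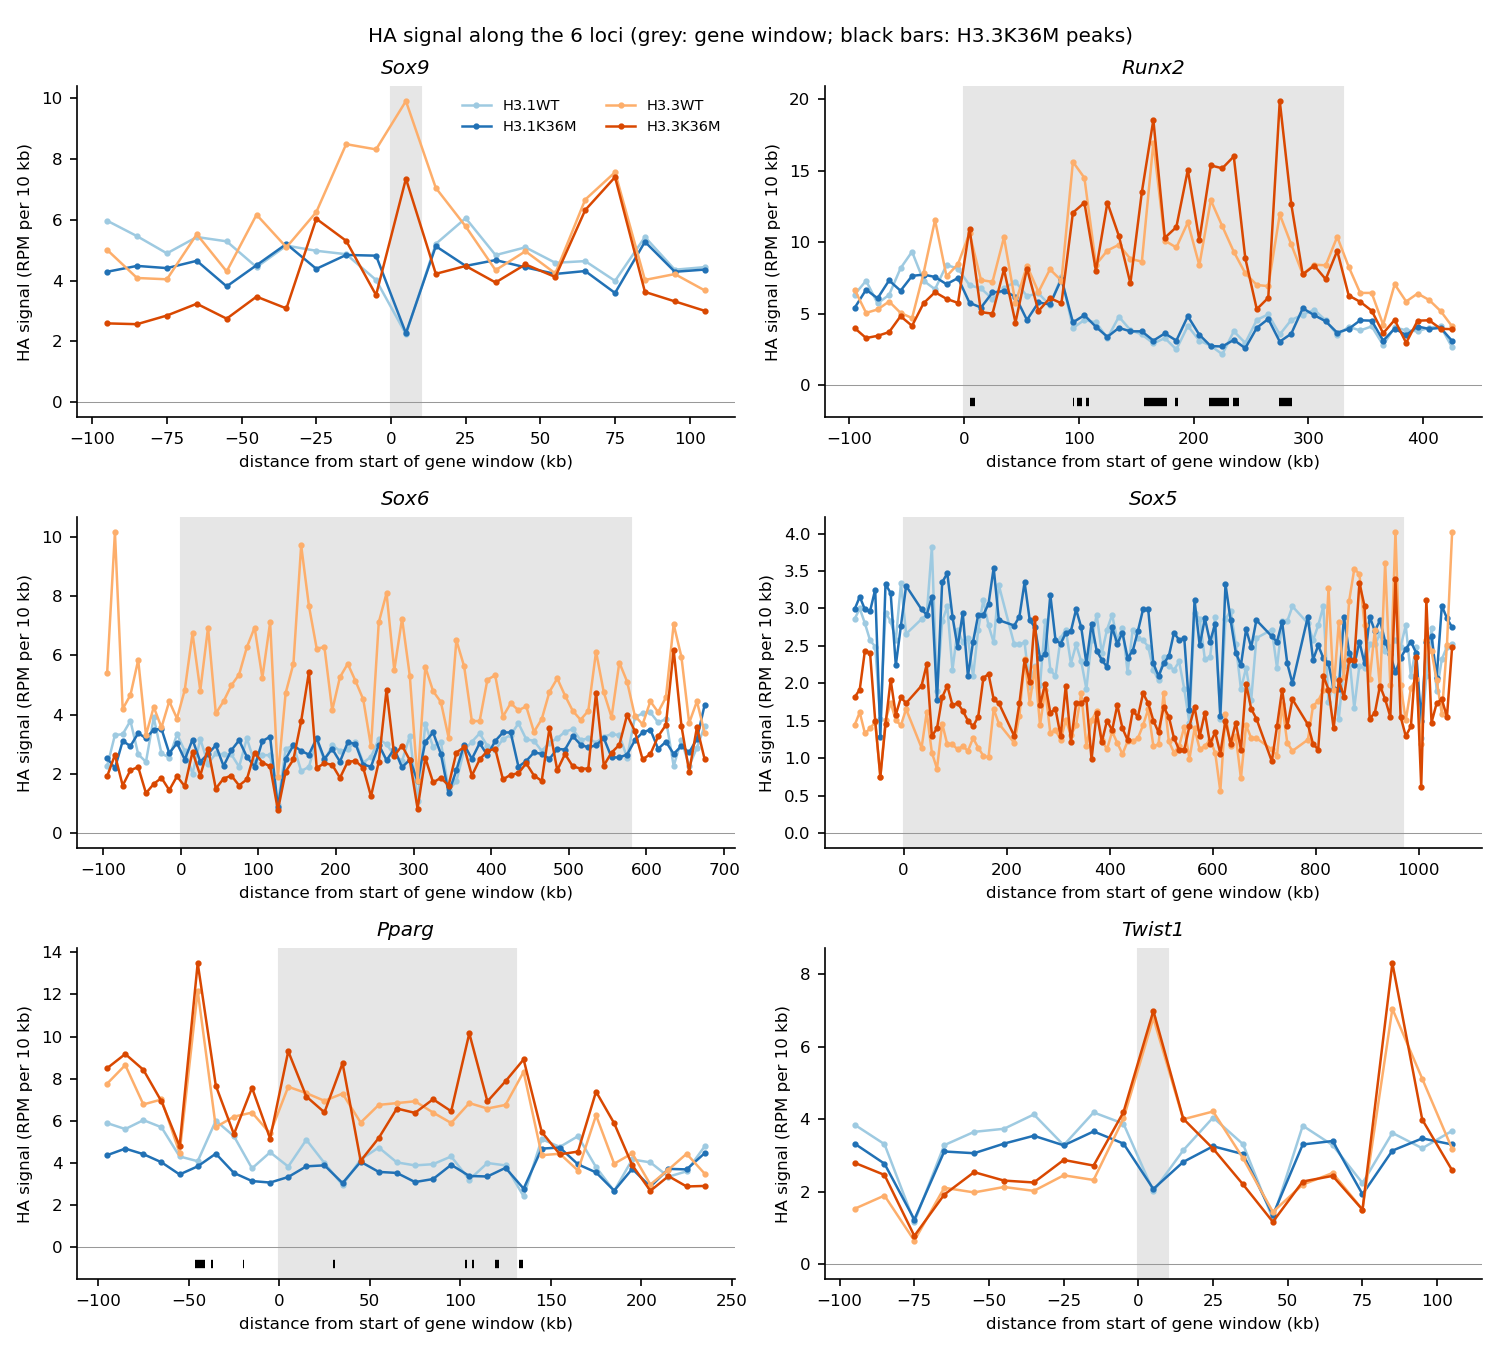
HA signal (RPM per 10 kb bin, vertical axis) of the 4 libraries against the distance from the start of each gene window (kb); grey marks the gene window and black bars the deposited H3.3K36M peaks. At Sox9 and Twist1 the 1-bin window lies above the mean of its flanks in H3.3 and below it in H3.1. Runx2 carries 9 peaks, and at Sox6 H3.3WT lies above H3.3K36M in every bin.

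Of the 4 ratios between lines, H3.3K36M over H3.3WT sets mutant against wild-type H3.3. Each is 1 line with 1 library, so the mutation cannot be told apart from other differences between the lines. The Sox6 locus carried less H3.3K36M than H3.3WT in all 78 of its bins, and the window as a whole was 2.13-fold lower (2.06 to 2.20), with 2.41 against 5.13 RPM. Over all member bins, 46 of 316 (14.6%) were at least 2-fold lower in H3.3K36M, where 1.81% of all bins were, and 45 of these lay in the Sox6 locus. Without Sox6, 1 of 238 bins was lower by this rule, so the count describes that locus. With the median bin ratio set to 1, the count of 46 became 56, and with a pseudocount of 1 RPM in place of 0.1 RPM it became 22. The share of all bins was not recounted under these settings. A single member bin, in Sox5, was at least 2-fold higher, where 2.94% of all bins were. The median of all bins in this ratio was 0.10 on the log2 scale, and the values of the 6 windows relative to it were -1.19 (Sox6), -0.53 (Sox9), -0.06 (Twist1), -0.03 (Pparg), -0.02 (Runx2) and -0.01 (Sox5).

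At Sox6, the partner of Sox9 in cartilage, the difference ran through the gene and was largest toward its 3′ end. In 4 consecutive parts of the window from the 5′ end, H3.3K36M was lower by 1.71-fold (1.61 to 1.82), 2.12-fold (1.99 to 2.265), 2.18-fold (2.05 to 2.31) and 2.655-fold (2.48 to 2.845). In the same order H3.3WT had 4.54, 4.73, 6.005 and 5.31 RPM, and H3.3K36M 2.65, 2.23, 2.76 and 2.00 RPM. The longest run of touching bins at least 2-fold lower was chr7:122610001-122770000, 160 kb at 2.14 RPM in H3.3K36M and 5.61 in H3.3WT.

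The bin richest in H3.3WT in this locus, chr7:122520001-122530000 in the 3′ flank, was also the one with the lowest ratio. It held 10.2 RPM in H3.3WT and 2.64 in H3.3K36M, 3.85-fold lower (3.102 to 4.82), with 3.31 RPM in H3.1WT and 2.19 in H3.1K36M. Since H3.3WT is the divisor of this ratio, a bin picked as richest in H3.3WT leans toward a low ratio. The bin at the 5′ end of the window, chr7:123180001-123190000, lay nearer to parity, with 5.12 RPM in H3.3WT and 3.99 in H3.3K36M. The highest H3.3K36M value of the locus was in the 5′ flank, at chr7:123240001-123250000, with 6.19 RPM against 7.05 RPM in H3.3WT. By order in the RefSeq table the genes 1110004F10Rik and Plekha7 follow Sox6 on that side.

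The low ratio at Sox6 extended past the gene on the 3′ side. In successive 100 kb steps away from the 3′ edge of the window, H3.3K36M was at 0.377, 0.363, 0.435, 0.365, 0.437 and 0.565 of H3.3WT, and it reached 0.819 and 1.17 in the following steps. On the 5′ side the values were 0.739, 0.693 and 0.764 of H3.3WT, then 1.13. The gene therefore lies within a longer stretch of reduced H3.3K36M signal that reached to 300 kb on its 5′ side and 700 kb on its 3′ side. With the fold of its own flanks divided out, the Sox6 window was at 0.855 in place of 0.470. The flanks differed, at 0.377 on the 3′ side and 0.739 on the 5′ side, and the window at 0.470 lay between them. The H3.1 libraries showed no such trough, with H3.1K36M between 0.788 and 1.16 of H3.1WT in all 20 steps around the gene. Over the Sox6 window H3.1K36M was at 0.962 of H3.1WT (0.928 to 0.997), with 2.69 and 2.80 RPM.

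**Figure D2:**
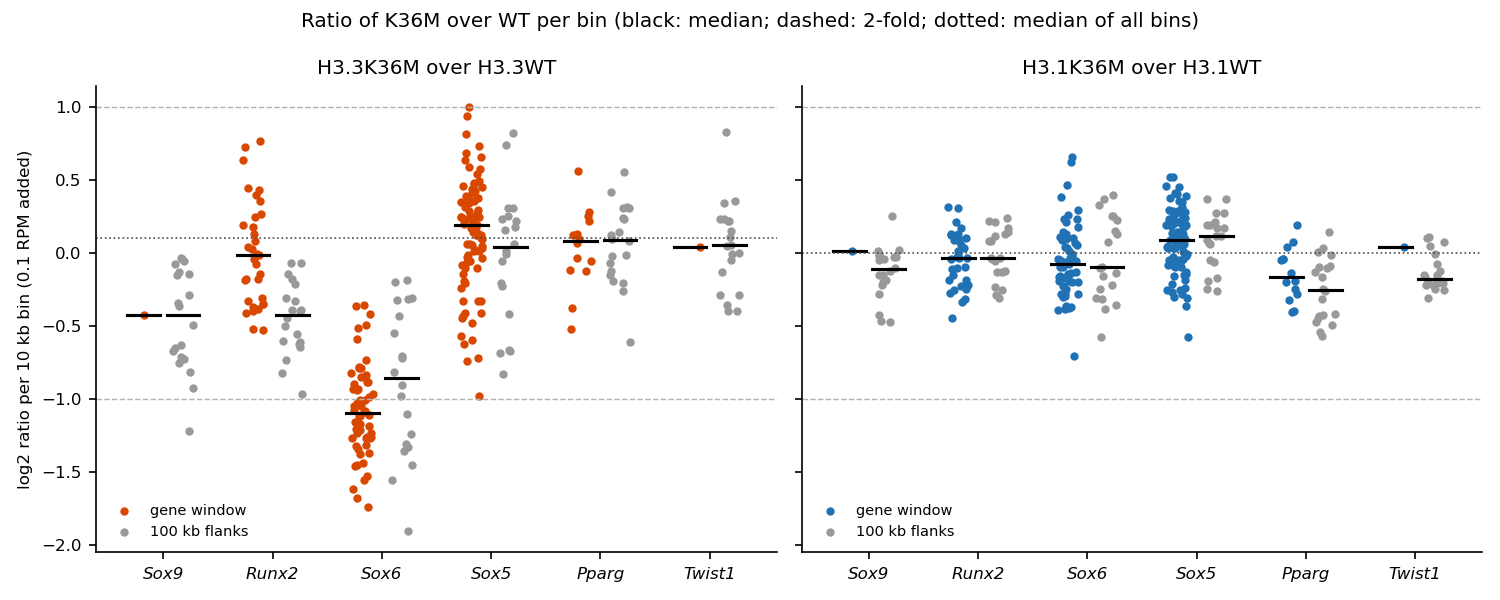
Log2 ratio of K36M over WT per 10 kb bin (0.1 RPM added, vertical axis) for H3.3 on the left and H3.1 on the right, by gene, with window bins in color and flank bins in grey; black bars are medians, dashed lines mark 2-fold and the dotted line the median of all bins. The Sox6 bins of H3.3 lie below 0 throughout, with 37 of 58 window bins past 2-fold, and no H3.1 bin passes 2-fold.

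Sox9 was lower in H3.3K36M by less. Its window, a single bin, had 9.91 RPM in H3.3WT and 7.36 in H3.3K36M, 1.35-fold lower (1.16 to 1.57), and its flanks were 1.37-fold lower (1.31 to 1.43), with 0 of 20 flank bins higher. The bin just before the gene, chr11:112630001-112640000, was the only one of this locus past 2-fold, with 8.32 RPM in H3.3WT and 3.52 in H3.3K36M, 2.36-fold lower (1.94 to 2.89). H3.1WT held 4.02 RPM and H3.1K36M 4.82 RPM in that bin. The bin closest to parity was chr11:112710001-112720000, with 7.57 RPM in H3.3WT and 7.41 in H3.3K36M.

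The nearest surroundings of Sox9 were less reduced than most of the chromatin farther out. In the 100 kb before the window H3.3K36M was at 0.618 of H3.3WT, and in the 100 kb after it at 0.856. From 100 kb to 1 Mb before the window the steps lay between 0.395 and 0.561, and from 300 kb to 800 kb after it between 0.441 and 0.534, while the last step after it was at 0.973. H3.1K36M was at 1.01 of H3.1WT (0.743 to 1.38) in the window and at 0.909 (0.868 to 0.953) in the flanks, and it fell to 0.677 and 0.527 in the farthest 2 steps before the gene.

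**Figure D3:**
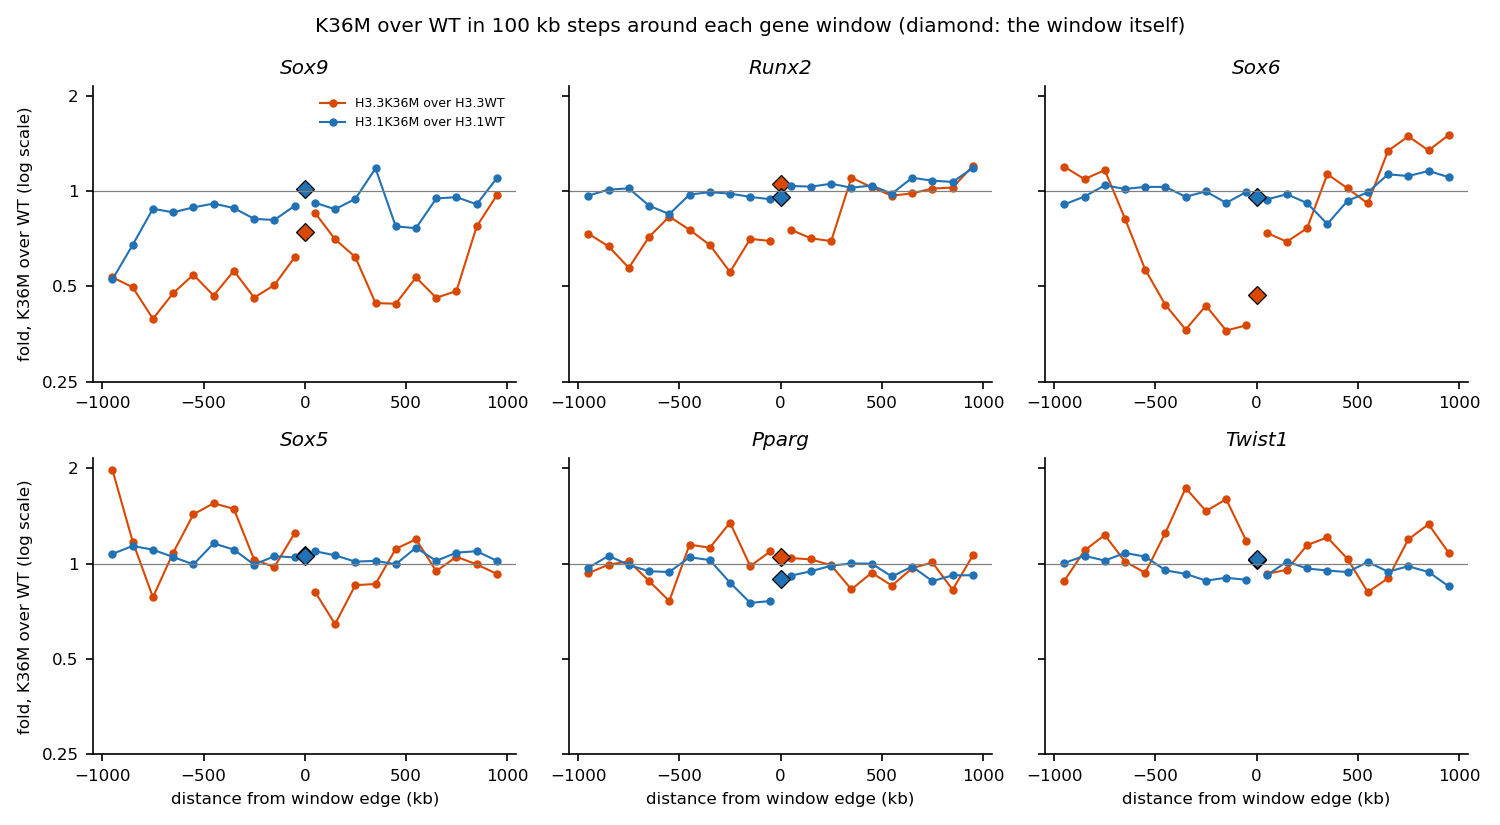
Fold of K36M over WT (log scale, vertical axis) in 100 kb steps to 1 Mb on either side of each gene window, for H3.3 (orange) and H3.1 (blue); diamonds are the windows themselves. Sox6 and Sox9 lie in long stretches where H3.3K36M is well under H3.3WT, and the Runx2 diamond, at 1.06, stands above its flanks, at 0.696 and 0.756.

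Runx2, the bone regulator, kept its H3.3 signal while its flanks had less of it in H3.3K36M. The window held 10.1 RPM in H3.3K36M and 9.55 in H3.3WT, a ratio of 1.06 (1.03 to 1.08) whose direction turned with other scalings: it was 0.984 with the median bin ratio set to 1. All 20 flank bins were lower, with a mean of 4.64 against 6.40 RPM, or 1.38-fold (1.32 to 1.44), and all 10 steps to 1 Mb on the 3′ side of the gene lay between 0.556 and 0.832 of H3.3WT. On the 5′ side the first 3 steps were at 0.756, 0.710 and 0.696, and those from 300 kb to 1 Mb lay between 0.968 and 1.20. In the RefSeq order Supt3 overlaps Runx2, so its signal cannot be told apart from that of Runx2 there. The ratio of window over flanks within a library, which no scaling between libraries can alter, was 1.49 (1.45 to 1.54) in H3.3WT and 2.18 (2.10 to 2.26) in H3.3K36M.

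Within Runx2 the balance shifted along the gene. In 4 consecutive parts from the 5′ end H3.3K36M divided by H3.3WT gave 1.09 (1.04 to 1.145), 1.24 (1.19 to 1.30), 0.998 (0.952 to 1.05) and 0.824 (0.779 to 0.872). The second part held the most signal, with 14.0 RPM in H3.3K36M and 11.2 in H3.3WT. The highest ratio of the locus was at chr17:44860001-44870000, with 16.0 RPM in H3.3K36M and 9.33 in H3.3WT, 1.715-fold (1.515 to 1.94). The highest H3.3K36M value was 19.9 RPM at chr17:44900001-44910000, where H3.3WT had 11.95 RPM and the H3.1 libraries had 3.54 (H3.1WT) and 3.04 RPM (H3.1K36M). The bin richest in H3.3WT was chr17:44790001-44800000, with 16.96 RPM, where H3.3K36M had 18.6 RPM. The bin at the 5′ end of the window, chr17:44950001-44960000, held 10.4 RPM in H3.3WT and 9.40 in H3.3K36M.

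Pparg, the fat cell regulator, was close between the H3.3 lines. The window held 7.22 RPM in H3.3K36M and 6.88 in H3.3WT, a ratio of 1.05 (1.005 to 1.10), which lay at 0.978 with the median bin ratio set to 1. Its flanks had a ratio of 1.07 (1.03 to 1.12). The highest ratio was at chr6:115410001-115420000 within the gene, with 10.15 RPM in H3.3K36M and 6.84 in H3.3WT, and this bin holds 2 H3.3K36M peaks. The bin richest in H3.3 was in the flank before the gene, at chr6:115260001-115270000, with 12.2 RPM in H3.3WT and 13.5 in H3.3K36M. In the RefSeq order Syn2 is the protein-coding neighbour on that side. The bin at the 5′ end of the gene held 7.61 RPM in H3.3WT and 9.30 in H3.3K36M.

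Twist1 and Sox5 also showed window ratios near parity, though their surroundings varied. In the 100 kb steps to 1 Mb, H3.3K36M ran from 0.813 to 1.73 of H3.3WT around Twist1. Around Sox5 it ran from 0.644 to 1.98. The highest steps were both before the window, 300 to 400 kb from Twist1 and 900 kb to 1 Mb from Sox5. The Twist1 window held 6.79 RPM in H3.3WT and 6.99 in H3.3K36M, a ratio of 1.03 (0.872 to 1.21). Over the Sox5 window the mean was 1.57 RPM in H3.3WT and 1.67 in H3.3K36M, a ratio of 1.06 (1.03 to 1.10) that was 0.991 with the median bin ratio set to 1. The near-even total at Sox5 hid opposite parts: in the part at the 5′ end H3.3K36M was at 0.831 of H3.3WT (0.780 to 0.884), with 1.91 and 2.30 RPM, and in the 3′ part at 1.32 (1.23 to 1.42), with 1.815 and 1.37 RPM. The 5′ part was also the richest in H3.3, and included chr6:144720001-144730000 with 4.02 RPM in H3.3WT and 3.39 in H3.3K36M. The lowest ratio of the locus was there too, at chr6:144700001-144710000 with 3.61 and 1.79 RPM. The bin past 2-fold, chr6:143930001-143940000, held 1.01 RPM in H3.3WT and was 2.10-fold higher (1.45 to 3.08) in H3.3K36M, with 2.12 RPM.

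The same comparison in H3.1 gave window ratios between 0.896 and 1.06, with no deficit at Sox6 like that of H3.3. No member bin of 316 was at least 2-fold higher or lower in H3.1K36M than in H3.1WT, where 0.0122% and 0.064% of all bins were. The window ratios were 1.06 (1.03 to 1.09) at Sox5, 1.03 (0.744 to 1.43) at Twist1 and 1.01 at Sox9, then 0.962 at Sox6, 0.958 (0.924 to 0.995) at Runx2 and 0.896 (0.841 to 0.954) at Pparg. The Pparg flanks were lower still, at 0.831 (0.791 to 0.872), with 17 of 20 bins lower. The widest single-bin departures were in Sox6 bins, between -0.70 and 0.66 on the log2 scale.

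The comparison of the variants in the WT lines shows where H3.3 exceeds H3.1. At least 2-fold higher in H3.3WT were 45 of 316 member bins (14.2%), where 10.3% of all bins were, and 32 (10.1%) were at least 2-fold lower, where 16.8% of all bins were. The higher bins lay mostly in 2 loci, with 19 in Runx2 and 18 in Sox6, then 4 in Pparg, 2 in Sox9, 1 in Twist1 and 1 in Sox5. In this order they were 35.85%, 23.1%, 11.8%, 9.52%, 4.76% and 0.917% of the bins of each locus. Without the Sox6 locus 27 of 238 bins were higher, so the count nears the 10.3% of all bins. Of the 32 lower bins, 31 were in Sox5 and 1 in the Twist1 flanks. At the 1-bin windows H3.3WT was 4.43-fold above H3.1WT (3.49 to 5.70) at Sox9 and 3.38-fold (2.61 to 4.44) at Twist1. The fold was 2.08 (2.02 to 2.15) at Runx2, 1.83 (1.78 to 1.89) at Sox6 and 1.77 (1.68 to 1.87) at Pparg. Sox5 was 1.57-fold lower (1.52 to 1.62). The median of all bins in this ratio was -0.43 on the log2 scale, so relative to it the Sox5 window was at -0.22 and that of Sox9 at 2.58. With the median bin ratio set to 1, the counts were 110 higher and 2 lower. The share of all bins was not recounted under that scaling, so 10.3% and 16.8% cannot be set beside these counts.

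In the K36M lines H3.3 exceeded H3.1 by more than 2-fold at 4 of the 6 genes, though the interval of Pparg includes 2. The fold was 2.08 (1.97 to 2.19) at Pparg and 2.295 (2.225 to 2.37) at Runx2, 3.25 (2.56 to 4.145) at Sox9, 3.37 (2.64 to 4.35) at Twist1 and 0.640 (0.620 to 0.661) at Sox5. At Sox6 it was 0.895 (0.863 to 0.928), where the WT lines had 1.83; this difference was not tested. The value 0.895 turned to 1.10 with the median bin ratio set to 1, that is, relative to a median of all bins of -0.30 on the log2 scale. Of the member bins, 35 were higher in H3.3K36M by 2-fold or more (11.1%), where 8.18% of all bins were, and 2 of these lay in Sox6. Lower by as much were 19 (6.01%), where 3.29% of all bins were, and 16 of these lay in Sox5. With the median bin ratio set to 1 there were 52 higher and 2 lower, and the share of all bins was not recounted under that scaling. This ratio and that of the WT lines share no library, but each shares 1 with the K36M ratio of H3.3.

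Set against their own flanks, the compact genes Sox9 and Twist1 showed opposite departures of the variants. At Sox9 the window held 1.81-fold more H3.3WT (1.64 to 1.99) and 1.83-fold more H3.3K36M (1.62 to 2.07) than the flanks, but 2.22-fold less H3.1WT (1.77 to 2.81) and 1.99-fold less H3.1K36M (1.62 to 2.47). All 20 flank bins had more H3.1 than the window in both H3.1 libraries. At Twist1 the window was 2.46-fold above its flanks in H3.3WT (2.18 to 2.77) and 2.475-fold in H3.3K36M (2.17 to 2.81), and 1.64-fold (1.30 to 2.11) and 1.44-fold (1.16 to 1.80) below them in H3.1WT and H3.1K36M. Of its 20 flank bins, 2 in H3.1WT and 3 in H3.1K36M had less H3.1 than the window. In each H3.3 library 1 flank bin had more H3.3 than the window. A second rise at Twist1 lay in the flank after the gene, at chr12:34720001-34730000, with 7.05 RPM in H3.3WT and 8.31 in H3.3K36M; Hdac9 is the next gene on that side in the RefSeq order.

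At Pparg, Sox6 and Sox5 the contrast with the flanks was weaker. Pparg was 1.23-fold above the joint mean of its flanks in H3.3WT and 1.20-fold in H3.3K36M, but not above each flank. In H3.3WT the window held 6.88 RPM, the flank before it 7.05 and the flank after it 4.165. In H3.3K36M the same regions held 7.22, 7.70 and 4.34 RPM. Sox6 was at 1.08 (1.04 to 1.12) in H3.3WT and at 0.923 (0.877 to 0.972) in H3.3K36M. In H3.3K36M the Sox6 window, at 2.41 RPM, lay between its 3′ flank, at 1.875, and its 5′ flank, at 3.35. Sox5 was at 0.873 (0.827 to 0.921) in H3.3WT and 0.942 (0.888 to 0.9996) in H3.3K36M, with H3.1 at parity, 0.997 in H3.1WT and 0.987 in H3.1K36M. In H3.3WT the Sox5 window, at 1.57 RPM, lay between the flank before it, at 1.42, and that after it, at 2.19.

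**Figure D4:**
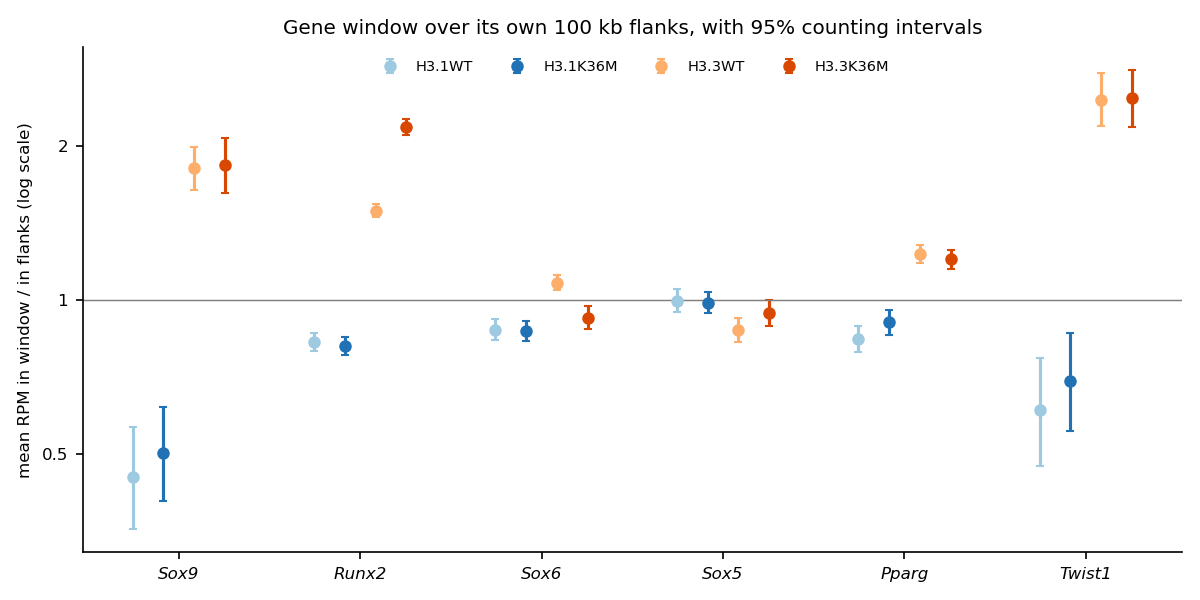
Mean RPM in each gene window divided by that in its own 100 kb flanks (log scale, vertical axis) for the 4 libraries, with 95% counting intervals as bars. H3.3 lies above 1 and H3.1 below 1 at Sox9, Runx2, Pparg and Twist1, and at Runx2 H3.3K36M, at 2.18, lies above H3.3WT, at 1.49. The H3.3 means of the Pparg window lay below those of the flank before it and above those of the flank after it. The H3.1 means of the Runx2 window, 4.59 (H3.1WT) and 4.40 RPM (H3.1K36M), lay between those of its flanks. The flank before it held 7.375 and 6.96 RPM, and the flank after it 3.72 and 3.86 RPM.

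The authors' deposited H3.3K36M peaks fell on 2 of the 6 loci. Of 8375 peaks, 17 lay in the loci, 9 at Runx2 and 8 at Pparg, and Sox9, Sox6, Sox5 and Twist1 had 0. That is 5.26 peaks per Mb of the loci, against 3.38 per Mb of the genome. No H3.1K36M peak of 73 touched any locus. The lists give positions with no score.

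All 9 Runx2 peaks were inside the gene window, where they covered 69.2 kb or 20.97% of it. The longest were chr17:44787201-44806600 (19.4 kb), chr17:44843201-44860800 (17.6 kb) and chr17:44904001-44915400 (11.4 kb). Bins at the last of these averaged 16.3 RPM in H3.3K36M and 10.9 in H3.3WT. The 13 Runx2 bins with a peak had a median RPM of 12.8 for H3.3K36M, 10.6 for H3.3WT, 3.54 for H3.1WT and 3.59 for H3.1K36M. The 40 without one had 5.74, 7.27, 4.85 and 4.59 RPM. Peaks were called on H3.3K36M signal, so its excess in them is not a result.

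The Pparg peaks were short, with a median of 1.4 kb, and covered 4.28% of the window. The longest, chr6:115263401-115269000 (5.6 kb), was in the flank before the gene, 4 were in the window, and chr6:115442401-115444400 lay just past its end. The Sox9 and Twist1 windows had no peak, although at 7.36 and 6.99 RPM their H3.3K36M signal was about that of the Pparg bins with a peak, at a median of 7.77 RPM.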

How the data were processed

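The samples were 8 libraries from 4 C3H10T1/2 lines, 1 HA ChIP and 1 input library each; the 4 HA libraries were used, and input was not analysed here. Groups follow the genotype and description fields; both H3.3 ChIP titles start with an H3.1 name instead, and the protocol text names a Cbx2 antibody where the description names HA. Bowtie 1.0.0 and mm9 are named in the submitters' processing notes; the steps of counting, duplicate handling and peak calling were not given in the sources used here. As deposited, the authors' files hold RPM per row of the genome and lists of peak positions. In each RPM column 100% of values were whole multiples of 1 read (0.0215 to 0.0283 RPM, within 0.01 of a read beyond rounding), so reads were recovered. Peak positions lie on a 200 bp grid. The median was 116 to 151 reads per bin.

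The 245206 bins of 10 kb whose mean over the 4 HA libraries reached 0.5 RPM were used. Bin ratios are log2 of RPM plus 0.1, which understates changes of low bins; folds of regions are ratios of summed RPM with exact (Clopper-Pearson) 95% intervals on reads, and intervals of single levels are exact Poisson. A bin was called at 2-fold, a rule of size, not a test. Without molecular identifiers, PCR copies may count as reads. Windows were taken from the rule for the members. Named bins are, per locus, those richest in H3.3WT, those with the highest and lowest ratio of H3.3K36M over H3.3WT, the 5′ bin of the 4 larger genes, runs past 2-fold and the longest peaks; other named bins, the 4 parts of each gene and the steps to 1 Mb were chosen after values were seen. The members and lists were chosen with earlier results of these data known. No gene annotation of mm9 was used, so no further genes were placed on the bins. The steps were tested on simulated data. Versions were matplotlib 3.10.9, scipy 1.17.1, pandas 2.3.3, numpy 2.4.6 and Python 3.11.15.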

Additional observations from a re-analysis of the deposited data

Results flagged for a closer look

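At the Runx2 and Pparg windows the ratio of K36M over WT lay above 1 in H3.3 and below 1 in H3.1, with both counting intervals clear of 1. At Runx2 it was 1.06 in H3.3 and 0.958 in H3.1, and at Pparg 1.05 and 0.896. The difference between the variants was not tested, since each rests on 1 library per line, and the H3.3 values fell below 1 with the median bin ratio set to 1.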

How the results depend on the processing

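No paired analysis was possible because each group has 1 library. The count of member bins at least 2-fold lower in H3.3K36M than in H3.3WT, 46, was 22 with a pseudocount of 1 RPM and 1 without the Sox6 locus, a setting added after seeing the data; the count higher, 1, was 0 with that pseudocount and 0 with the median bin ratio set to 1. For H3.3WT over H3.1WT that scaling gave 110 higher and 2 lower bins, and a pseudocount of 1 RPM gave 2 lower. Without Sox6, 27 of 238 bins were higher, where 10.3% of all bins were. The shares of all bins were not recounted under any other scaling or pseudocount. For H3.3K36M over H3.1K36M the lower bins numbered 0 with a pseudocount of 1 RPM and 2 after scaling. H3.3K36M exceeded H3.3WT at 4 of 6 windows as deposited and at 0 with the median of all bins, or of the gene's own chromosome, set to 1. These gave 0.984 and 0.934 at Runx2, 0.991 and 0.899 at Sox5, and 0.978 and 0.887 at Pparg. Runx2 was at 0.993 by the median of row ratios and 0.960 with flanks. With the fold of the flanks divided out, also added later, Sox6 was at 0.855 in place of 0.470, Sox9 at 1.01, Pparg at 0.978, and in H3.1 Sox5 at 0.990 and Pparg at 1.08. The Sox6 window, at 0.470, lay between its 3′ flank, at 0.377, and its 5′ flank, at 0.739. For H3.1 the windows above 1 went from 3 to 1 with flanks. H3.3WT over H3.1WT at Twist1 was 0.911, and H3.3K36M over H3.1K36M at Sox9 0.949, with flanks. Sox6 in the last ratio was at 1.10, 1.12 and 1.06 after the median, chromosome and flank scalings. With flanks of 50 kb, H3.3K36M over its flanks was 1.015 at Sox6 and 1.018 at Sox5, and 1 window stood above its flanks in H3.1WT and in H3.1K36M, against 0. Peaks of at least the median length numbered 10 of 17. The cause was not tested in these cases. At Sox6 the deficit of H3.3K36M against H3.3WT kept its direction under every setting run.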

Other observations

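Across the bins of a gene window, H3.1 and H3.3 signal ran in opposite directions in Runx2 and Pparg. Pearson's r of log2 RPM between H3.1WT and H3.3WT was -0.498 over the 33 Runx2 bins and -0.547 over the 14 Pparg bins, and between H3.1K36M and H3.3K36M it was -0.679 and -0.567. In Sox6 the same values over 58 bins were 0.309 and 0.411, in Sox5 over 89 bins -0.08 and 0.14, and over all 245206 bins 0.507 and 0.522. Bins of 1 gene are neighbours, share their libraries and share the mappability of their sequence, so these values are descriptions.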
